A study of Bos taurus with 6 samples.

Results

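Fatty acid desaturases and elongases are the host enzymes that place a double bond in a fatty acyl chain or lengthen it. The members described here were chosen by gene symbol, FADS1, FADS2, FADS3, SCD and SCD5 for the desaturases and ELOVL1, ELOVL4, ELOVL5, ELOVL6 and ELOVL7 for the elongases, and they are 10 of the 17663 genes in the deposited table. RNA had been sequenced from bovine fetal fibroblasts (bEFs), connective tissue cells grown in primary culture from cattle fetuses of 50–60 days after the head, limbs, organs and bones were removed. The fat-1 transgenic (FT) group was 3 fetuses with an exogenous fat-1 gene of Caenorhabditis elegans, and the wild-type (WT) group was 3 Luxi fetuses without it. Each fetus gave 1 poly(A) library, named FT_1 to FT_3 and WT_1 to WT_3. The comparison of FT with WT cells asked how host gene expression differed in cells that carry the transgene. The promoter of the transgene, the breed of the FT fetuses and whether they share a founder are not given in the sources used here. All fetuses shared the same age range and culture method, and genotype was the only labelled difference between the groups.

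Linoleic acid (n-6) and alpha-linolenic acid (n-3) are turned into longer and more unsaturated PUFA by the same chain of enzymes, with delta-6 desaturation by FADS2, elongation mainly by ELOVL5, and delta-5 desaturation by FADS1. The product of fat-1 is an n-3 desaturase that mammals lack, and it changes n-6 PUFA into their n-3 counterparts, so its substrates and products are also those of the host enzymes. SCD and SCD5 make monounsaturated fatty acids, and ELOVL6 lengthens the saturated and monounsaturated chains that come from fatty acid synthase.

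Total counts were 63366834, 48167642 and 54204446 in FT_1, FT_2 and FT_3, and 69777641, 51310741 and 54271927 in WT_1, WT_2 and WT_3. Levels are given as FPKM (fragments scaled to gene length and library size), so that genes of different length can be compared. Differences between groups are log2 fold changes (FT minus WT) from edgeR's quasi-likelihood test on the raw counts, with the SE implied by its F statistic. A gene was called at a Benjamini-Hochberg adjusted p under 0.05 over the 13482 genes that passed a filter on low counts, and all 10 members passed it.

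FT_1 stood apart from the other libraries. The spread of gene levels between a pair of libraries that counting noise does not cover, as a biological coefficient of variation, was 56.9% between FT_1 and FT_2 and 57.6% between FT_1 and FT_3, against 8.25% between FT_2 and FT_3 and 9.99–13.4% between the WT libraries. The 6 listed epithelial markers summed to 432 FPKM in FT_1, but to 12.7 and 11.9 FPKM in FT_2 and FT_3 and to 7.83–13.9 FPKM in WT cells. In WT cells this sum was CDH1 alone. The keratin KRT5, the most abundant of them in FT_1, was at 172, 2.57 and 1.63 FPKM in FT_1, FT_2 and FT_3 and 0 in every WT library, and EPCAM, KRT14, KRT8 and KRT18 were also at 0 in every WT library. The 11 listed fibroblast markers were all present in all 6 libraries and summed to 8603, 20090 and 19380 FPKM in FT_1, FT_2 and FT_3, against 21230–21670 FPKM in WT cells. Vimentin (VIM), the most abundant of them in WT cells, was at 1244, 3850 and 4171 FPKM in FT_1, FT_2 and FT_3 and 7312–8178 in WT cells, and was not called (edgeR adjusted p = 0.0902). The only fibroblast marker called was PDGFRA, which was higher in FT cells (log2 fold change 1.06, adjusted p = 0.0053) and highest in FT_1, at 218 FPKM. THY1 was also highest in FT_1, so the low sum of that library did not hold for every marker. Without FT_1, COL1A1, DCN, LUM and PDGFRB were called higher too, and VIM and S100A4 lower. KRT5, KRT14, KRT8 and KRT18 were not called with all libraries (edgeR adjusted p 0.0561–0.0696) but were called higher without FT_1. Leaving FT_1 out thus does not remove the keratin difference between the groups. The part of these markers in the results was not tested. The 10 members and the counts of calls in each list of genes by function are given with and without FT_1, and no called gene named here lost its call without that library.

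Of the 10 members, 3 were higher in FT cells (FADS1, FADS2 and FADS3), 1 was lower (ELOVL6) and 6 were not called. Among all genes tested, 20.1% were called higher and 18.9% lower. With a log2 fold change over 1 as well, the same 3 desaturases were called higher, against 8.39% of all genes, and 0 members were called with a log2 fold change under -1, against 7.56% (3 and 0 also by edgeR's unadjusted p and by DESeq2, but 2 and 0 by limma, with FADS3 at 0.88). The FPKM values of FT cells lay above all WT values for 3 members and below them for 1, whereas 21.8% of all genes tested lay above and 36.9% below. Without FT_1, 5 members were higher and 3 lower, against 30.6% and 31.5% of the 13765 genes then tested. With 10 members, none of these shares is read as particular to the gene family.

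**Figure D1:**
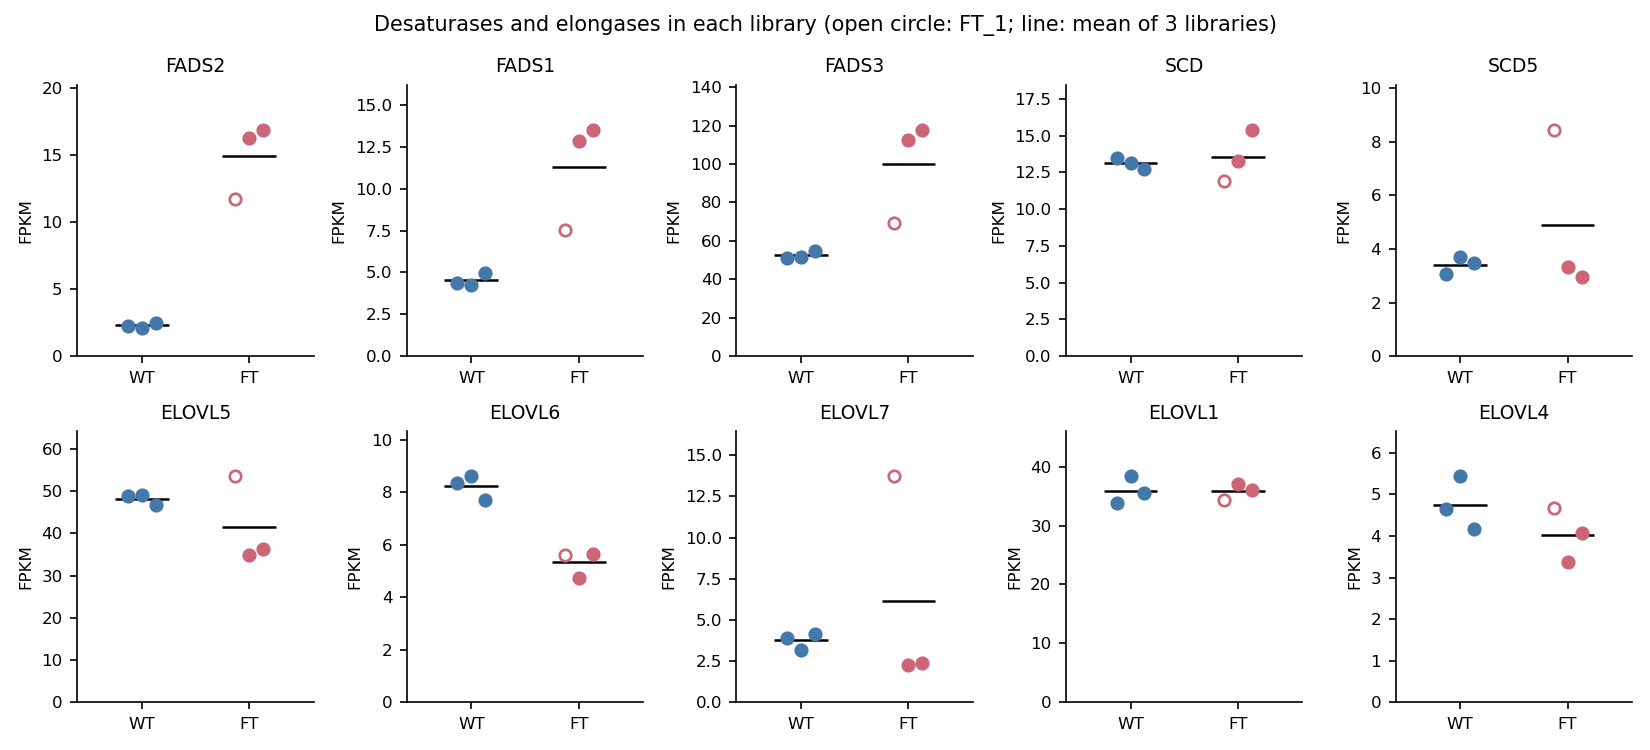
FPKM of each desaturase and elongase (vertical axes, each from 0) in the 3 WT and 3 FT libraries (points), with the mean of each group as a line and FT_1 as an open circle. The 3 FADS genes lie above all WT libraries in all 3 FT libraries, ELOVL6 lies below, and in SCD5 and ELOVL7 the FT mean is raised by FT_1 alone.

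The 3 FADS genes rose in FT cells, with the largest change in FADS2. FADS2, the delta-6 desaturase of the first step of PUFA synthesis (ENSBTAG00000015505, plus strand of chromosome 29, 40350389 to 40387558 in the authors' table), was measured at 11.7, 16.3 and 16.9 FPKM in FT_1, FT_2 and FT_3 and at 2.25, 2.13 and 2.50 FPKM in WT_1, WT_2 and WT_3. All FT libraries were high and all WT libraries low, with no overlap between the groups and with FT_1 the lowest of the FT libraries. These levels rest on counts of 2379, 2507 and 2932 in FT cells and of 501, 349 and 432 in WT cells. The mean was 15.0 ± 2.83 FPKM in FT cells and 2.29 ± 0.189 FPKM in WT cells (SD, n = 3 each). The log2 fold change was 2.87 (SE 0.18, 95% interval 2.42 to 3.31), a 7.29-fold higher level, with an edgeR adjusted p of 0.00056. Ranked among all genes tested, FADS2 moved from percentiles 26.5–28.1 in WT cells to 62.6–73.1 in FT cells. Without FT_1 the log2 fold change was 3.02, so the rise was as large without that library. In bulk samples such as these, fewer cells of a type and less RNA per cell cannot be told apart.

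FADS1, the delta-5 desaturase that acts later in the same pathway (ENSBTAG00000022294, minus strand, 40244038 to 40351218 on chromosome 29), was at 7.56, 12.9 and 13.5 FPKM in FT_1, FT_2 and FT_3, against 4.38, 4.25 and 4.98 in WT_1, WT_2 and WT_3. The groups did not overlap, and FT_1 lay nearer to the WT libraries than to FT_2 and FT_3. Its log2 fold change was 1.48 (SE 0.24, 95% interval 0.89 to 2.08, edgeR adjusted p = 0.0057), and 1.71 without FT_1. FADS3, a related desaturase whose known substrates include sphingoid bases (ENSBTAG00000015511, minus strand, 40392841 to 40407757), was at 69.3, 112 and 118 FPKM in FT_1, FT_2 and FT_3 and at 50.9, 51.6 and 54.5 FPKM in WT_1, WT_2 and WT_3. It was the most abundant member in every library, its FT values were all above its WT values, and FT_1 was again the lowest FT library. The log2 fold change of FADS3 was 1.09 (SE 0.22, 95% interval 0.56 to 1.62, edgeR adjusted p = 0.0109), and 1.31 without FT_1. Its call was lost without WT_1 (edgeR adjusted p = 0.0533) and without WT_2 (0.0526), with log2 fold changes of 1.07 and 1.08. FADS1 and FADS2 were called higher in all 15 other fits, with log2 fold changes of 1.12 to 1.71 and of 2.26 to 3.02.

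FADS1 and FADS2 overlap by 830 bases on opposite strands. How reads in this stretch were assigned, and whether strand was used, is not given in the sources used here, so reads from it cannot be told apart. The gap from FADS2 to FADS3 is 5283 bases, so the 3 genes form 1 cluster, and 7 other genes of the table lie within 100 kb of one of them, of which MYRF had too few counts to test. FEN1, a flap endonuclease 2415 bases from FADS1, was at 3.96, 6.31 and 5.30 FPKM in FT_1, FT_2 and FT_3 and at 10.8, 13.8 and 10.6 in WT_1, WT_2 and WT_3. TMEM258 was at 47.6, 46.2 and 35.2 FPKM in the FT libraries in the same order and at 84.4, 87.4 and 75.7 FPKM in the WT libraries. Both were lower in FT cells without overlap, with log2 fold changes of -1.01 (edgeR adjusted p = 0.0134) and -0.78 (0.0064), so the direction of the FADS genes was not shared by their nearest neighbours on that side. The call of FEN1 was lost without WT_2 (adjusted p = 0.0542). DAGLA, a diacylglycerol lipase 55393 bases from FADS1, was at 1.41, 2.54 and 2.58 FPKM in FT cells and at 1.14, 1.26 and 1.15 FPKM in WT cells. It was higher in FT cells (log2 fold change 1.04, edgeR adjusted p = 0.0297), with FT_1 close to the WT values, and its call was lost without FT_2, FT_3, WT_1, WT_2 or WT_3 in turn (adjusted p 0.0889–0.106) and in the 3 limma fits (0.0594–0.0868). RAB3IL1, 9243 bases from FADS3, was at 7.15, 32.5 and 32.9 FPKM in FT_1, FT_2 and FT_3, against 18.9–20.0 FPKM in WT cells. Its FT libraries lay on both sides of the WT libraries, and it was called higher only when FT_1 was left out (log2 fold change 0.92, edgeR adjusted p = 1.9e-06, against 0.48 and 0.518 with FT_1). BEST1, at 0.03–0.76 FPKM, and the ferritin gene FTH1, at 1009–1237 FPKM, overlapped between groups and were not called, although FTH1 was called higher without FT_1 (log2 fold change 0.19, edgeR adjusted p = 0.0174).

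The 3 FADS genes did not rise in proportion. The ratio of FADS2 to FADS1 in FPKM was 1.55, 1.27 and 1.25 in FT_1, FT_2 and FT_3 and 0.514, 0.501 and 0.502 in WT_1, WT_2 and WT_3. FADS2 was thus below FADS1 in all WT libraries and above it in all FT libraries, and the mean ratio was 2.68 times higher in FT cells. Reads from the stretch where FADS1 and FADS2 overlap may enter this ratio and the shares below, and their part was not tested. FADS2 made up 13.2%, 11.5% and 11.4% of the summed FPKM of the 3 FADS genes in the FT libraries and 3.91%, 3.67% and 4.03% in the WT libraries. The share of FADS3 was 78.2–79.5% in FT cells and 87.9–89.0% in WT cells. FT_1 lay nearer to FT_2 and FT_3 than to the WT libraries in these shares, although its levels of the 3 genes were lower than theirs. The sum of the 3 genes was 88.6, 142 and 148 FPKM in FT_1, FT_2 and FT_3 and 57.5, 58.0 and 62.0 FPKM in WT_1, WT_2 and WT_3. Each of these ratios, shares and sums separated the groups, and each exact two-sided permutation test gave p = 0.1, the smallest value that 3 libraries against 3 can give.

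**Figure D2:**
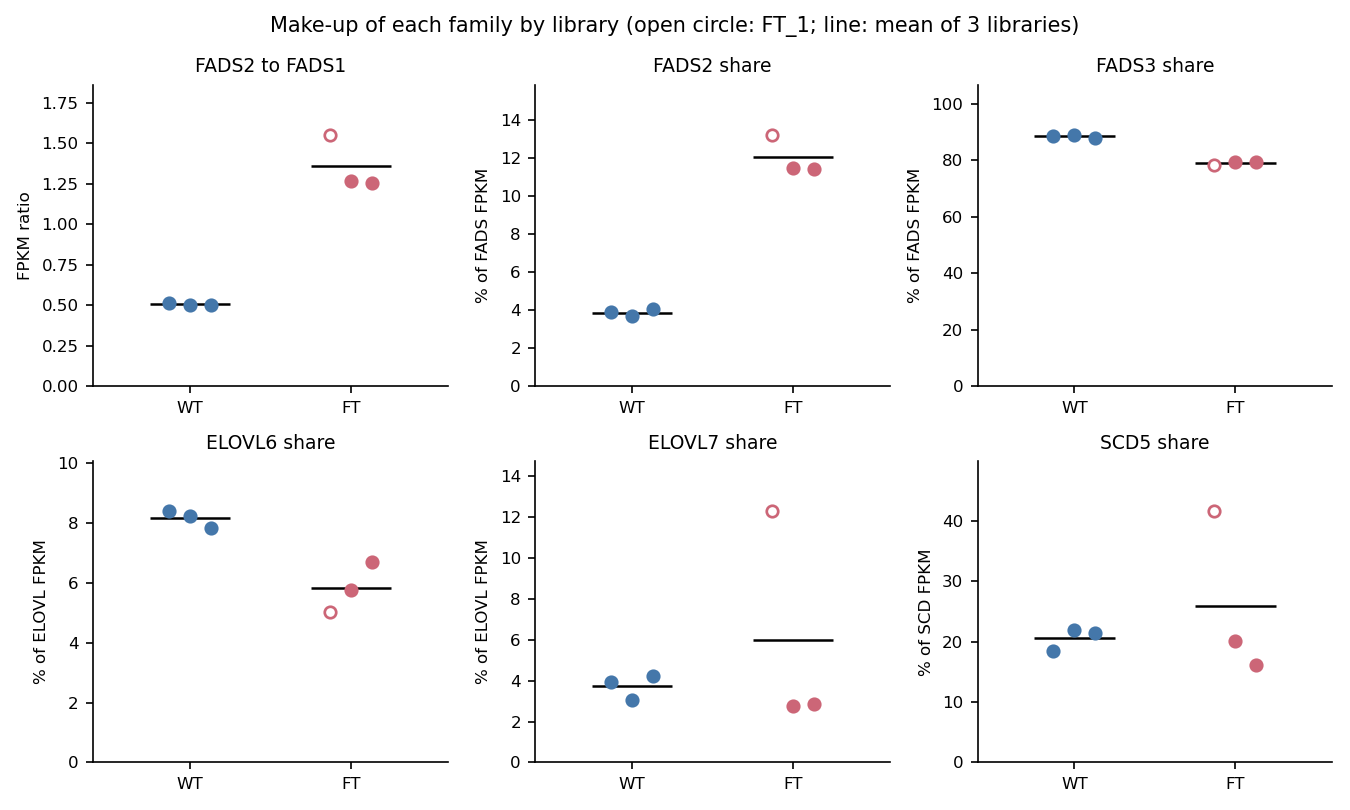
Ratio of FADS2 to FADS1 and shares of single genes in the summed FPKM of the FADS, ELOVL or SCD family (vertical axes, each from 0) in the 3 WT and 3 FT libraries (points), with group means as lines and FT_1 as an open circle. The FADS2 to FADS1 ratio is 0.501–0.514 in WT and 1.25–1.55 in FT libraries, and the ELOVL7 and SCD5 shares are high in FT_1 only.

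The stearoyl-CoA desaturases, which make oleate and palmitoleate from saturated chains, were not called. SCD was at 11.9, 13.3 and 15.4 FPKM in FT_1, FT_2 and FT_3 and at 13.5, 13.2 and 12.7 FPKM in WT_1, WT_2 and WT_3. The WT values lay within the range of the FT values. SCD had a log2 fold change of 0.20 (SE 0.12, 95% interval -0.09 to 0.49, edgeR adjusted p = 0.218). Without FT_1 it was 0.30 and was called (adjusted p = 0.0088). With all libraries and library totals as the only scaling it was 0.05 (adjusted p = 0.741), and the 2 changes were not combined. SCD5, the second isoform, was at 8.45, 3.33 and 2.94 FPKM in FT_1, FT_2 and FT_3 and at 3.05, 3.69 and 3.47 FPKM in WT_1, WT_2 and WT_3. FT_1 was high and the other 5 libraries overlapped. Its log2 fold change was 0.68 (SE 0.41, edgeR adjusted p = 0.237) with all libraries and 0.05 (adjusted p = 0.746) without FT_1. SCD5 made up 41.5% of the SCD and SCD5 sum in FT_1, 20.1% in FT_2, 16.0% in FT_3 and 18.4–21.9% in WT cells.

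Among the elongases, ELOVL6 was lower in FT cells. ELOVL6 (ENSBTAG00000010564, plus strand of chromosome 6, 15199666 to 15360477), which lengthens palmitate, was at 5.62, 4.75 and 5.65 FPKM in FT_1, FT_2 and FT_3 and at 8.35, 8.60 and 7.70 FPKM in WT_1, WT_2 and WT_3. All FT libraries lay below all WT libraries, and FT_1 lay among the other FT libraries. The log2 fold change was -0.46 (SE 0.11, 95% interval -0.72 to -0.21, edgeR adjusted p = 0.0173), and -0.49 without FT_1. The call was lost without WT_1 (adjusted p = 0.0709) and without WT_2 (0.0673), with log2 fold changes of -0.46 and -0.43. It was also lost with the replicate number as a block (-0.47, edgeR adjusted p = 0.067). Its share of the summed FPKM of the 5 ELOVL genes was 5.03%, 5.76% and 6.68% in FT_1, FT_2 and FT_3 and 8.39%, 8.22% and 7.84% in WT_1, WT_2 and WT_3. An unnamed gene of 231 bases on the opposite strand, ENSBTAG00000038368, lies inside ELOVL6, and reads from it cannot be told apart without the strand. It too was lower in FT cells (log2 fold change -1.52, edgeR adjusted p = 0.0497).

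ELOVL5, the elongase of PUFA, was at 53.5, 34.9 and 36.4 FPKM in FT_1, FT_2 and FT_3 and at 48.8, 49.1 and 46.8 FPKM in WT_1, WT_2 and WT_3. FT_1 was above all WT libraries, while FT_2 and FT_3 were below them. The log2 fold change was -0.06 (SE 0.17, edgeR adjusted p = 0.808) with FT_1 and -0.26 (SE 0.06, adjusted p = 0.0053) without it. ELOVL7, which acts on saturated and long chains, was at 13.7, 2.27 and 2.42 FPKM in FT_1, FT_2 and FT_3 and at 3.93, 3.20 and 4.15 FPKM in WT_1, WT_2 and WT_3. FT_1 was the highest library and FT_2 and FT_3 were the lowest. The log2 fold change of ELOVL7 was 0.85 (SE 0.72, edgeR adjusted p = 0.389) with FT_1 and -0.51 (SE 0.14, adjusted p = 0.0082) without it, a reversed direction. ELOVL7 held 12.3% of the ELOVL sum in FT_1, 2.75% in FT_2, 2.86% in FT_3 and 3.06–4.22% in WT cells.

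ELOVL1, an elongase of very long saturated and monounsaturated chains, was at 34.3, 37.1 and 36.0 FPKM in FT_1, FT_2 and FT_3 and at 33.8, 38.3 and 35.5 FPKM in WT_1, WT_2 and WT_3. The groups overlapped fully, and the log2 fold change was 0.16 (SE 0.08, edgeR adjusted p = 0.189). Without FT_1 it was 0.20 and was called (adjusted p = 0.0348), whereas limma on log2(FPKM + 1) with all libraries gave -0.0022. ELOVL4, which makes the longest chains, was at 4.66, 3.37 and 4.06 FPKM in FT_1, FT_2 and FT_3 and at 4.65, 5.43 and 4.16 FPKM in WT_1, WT_2 and WT_3. Its groups overlapped too, with a log2 fold change of -0.08 (SE 0.17, edgeR adjusted p = 0.743) and of -0.18 (adjusted p = 0.308) without FT_1.

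**Figure D3:**
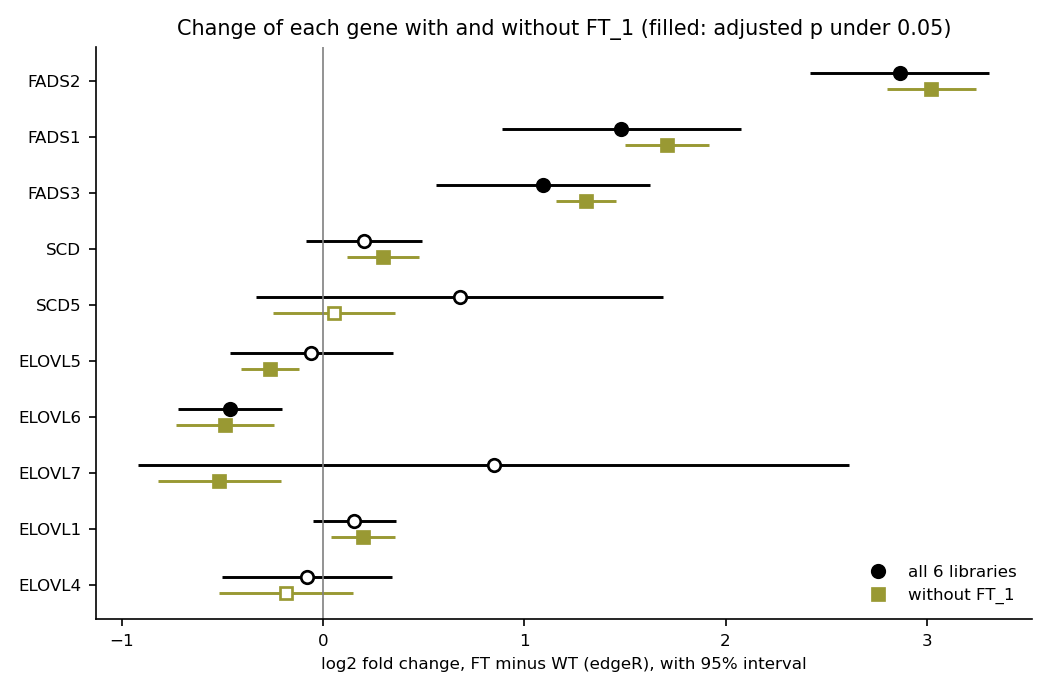
Log2 fold change (FT minus WT, edgeR) of each desaturase and elongase with its 95% interval (horizontal lines), from all 6 libraries (circles) and without FT_1 (squares), filled where the adjusted p was under 0.05. FADS2, FADS1, FADS3 and ELOVL6 are filled in both fits, while ELOVL7 goes from 0.85 to -0.51 without FT_1.

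The 10 genes differed widely in level. In WT cells the order of mean FPKM was FADS3 (52.3), ELOVL5 (48.2), ELOVL1 (35.9), SCD (13.1), ELOVL6 (8.22), ELOVL4 (4.75), FADS1 (4.54), ELOVL7 (3.76), SCD5 (3.40) and FADS2 (2.29). Among neighbours in this order, the libraries of ELOVL4 and FADS1 overlapped, as did those of ELOVL7 and SCD5, and the other neighbours did not. In FT cells FADS3 (99.8 FPKM) was followed by ELOVL5 (41.6) and ELOVL1 (35.8), which overlapped, and then by FADS2 (15.0), SCD (13.5) and FADS1 (11.3), each of which overlapped with the next. The remaining 3 elongases and SCD5 lay at means of 4.03–6.14 FPKM, and each overlapped with the next. By mean FPKM, FADS2 thus went from the lowest of the 10 levels in WT cells to the fourth in FT cells. In FT_1, however, FADS2 (11.7 FPKM) lay below ELOVL7 (13.7) and SCD (11.9).

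FT_1 differed from FT_2 and FT_3 by amounts that varied between the members. Its log2 ratio to the mean of the other FT libraries in FPKM was 2.55 for ELOVL7, 1.43 for SCD5 and 0.58 for ELOVL5, and -0.80 for FADS1, -0.73 for FADS3 and -0.50 for FADS2. Of 10351 genes with at least 1 FPKM in every FT library, 1.38% had a ratio as far from 0 as that of ELOVL7 and 5.92% as that of SCD5. For the other 8 members this share was 16.4–82.7%. ELOVL6, ELOVL1 and SCD were among the least displaced, at 0.11, -0.09 and -0.27. The 3 elongase and desaturase genes that were high in FT_1 were thus high in the library with high keratins and a low sum of fibroblast markers, and the link was not tested.

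**Figure D4:**
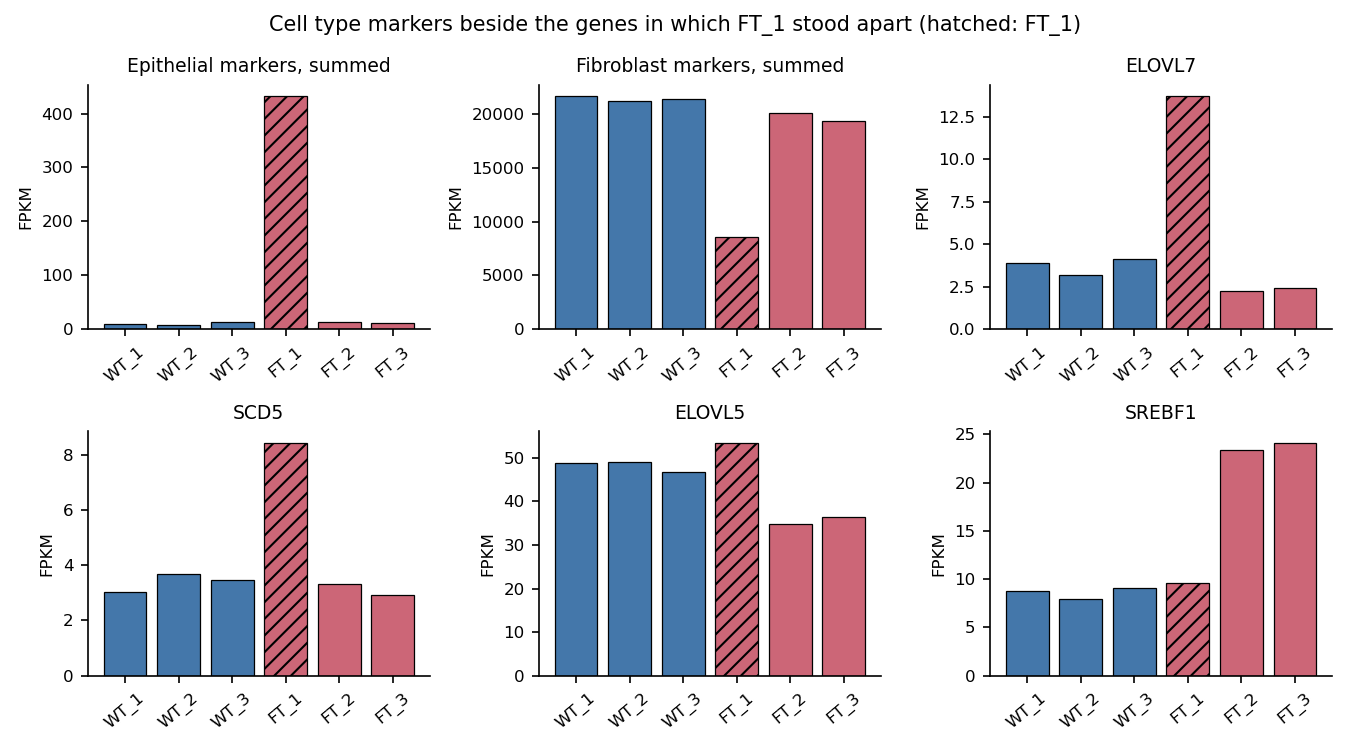
FPKM in each library (bars from 0, WT in blue, FT in red, FT_1 hatched) of the summed epithelial and fibroblast markers, of ELOVL7, SCD5 and ELOVL5, and of the transcription factor gene SREBF1. FT_1 has the highest epithelial sum (432 FPKM), the lowest fibroblast sum (8603 FPKM) and the highest ELOVL7, SCD5 and ELOVL5 levels, and its SREBF1 level (9.59 FPKM) lies near those of WT cells.

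Single markers of other cell types also differed between the groups. The 5 smooth muscle markers summed to 2483, 3754 and 3616 FPKM in FT_1, FT_2 and FT_3 and to 1095, 1076 and 1201 FPKM in the WT libraries. ACTA2 was the highest of them in FT cells, and 4 of 5 were called higher (not MYH11), against 20.1% of all genes tested. The 3 mesothelial markers in the table summed to 200, 45.0 and 46.3 FPKM in FT_1, FT_2 and FT_3 and to 2.32–3.48 FPKM in WT cells, nearly all of it from MSLN, the only one called (higher). UPK3B overlapped between groups and was not called, and WT1 was at 0 in every FT library and had too few counts to test. The 6 adipocyte markers summed to 2.99, 18.9 and 19.7 FPKM in FT_1, FT_2 and FT_3 and to 138–155 FPKM in WT cells, where FABP4 was the most abundant. Of these, FABP4 and CIDEC were lower and LEP higher (in FT_2 and FT_3 only), LPL and PLIN1 were not called, PLIN1 was at 1.23–1.49 FPKM in all libraries, and ADIPOQ was at 0 in every FT library and in WT_2. The sample records speak of an adipose type where they describe the RNA, although they name fetal fibroblasts as the source. Endothelial markers in the table, 5 in number, were each under 1 FPKM in every library, with PECAM1 the highest in WT cells and sums of 0.47–1.52 FPKM. The 4 leukocyte and macrophage markers, led by CD14, summed to 3.52–4.25 FPKM in FT and 6.72–8.06 FPKM in WT cells, with CD68 lower. The 3 neural and glial markers, led by S100B, summed to 5.83–15.0 FPKM, with TUBB3 lower, and the 2 skeletal muscle markers in the table went in opposite directions. DES was higher in FT cells, at 3.17–5.74 against at most 0.07 FPKM, while MYF5 lay below all WT values, at 0.03–0.61 against 1.06–1.93 FPKM, and was called lower only without FT_1. The part of these lists in the changes of the FADS genes and ELOVL6 was not tested.

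The genes around the desaturases and elongases were read from lists by function, with no test of a list. For comparison with the counts of calls below, 20.1% of all genes tested were higher and 18.9% lower with all libraries. Without FT_1 these shares were 30.6% and 31.5%. Desaturases draw electrons from cytochrome b5 and its reductases, and of 6 such genes 2 were higher and 2 lower, with and without FT_1. The median of their log2 fold changes was 0.09, and that of all genes tested was 0.03. CYB5A was at 13.4, 12.6 and 12.0 FPKM in FT_1, FT_2 and FT_3 and at 21.0, 23.3 and 21.2 FPKM in the WT libraries, and fell (log2 fold change -0.63, edgeR adjusted p = 0.0027). The reductase CYB5R1 was at 24.7, 29.1 and 25.8 FPKM in FT cells and at 17.7–19.4 FPKM in WT cells, and rose (0.69, adjusted p = 0.0035). CYB5R2 was at 0.01–0.06 FPKM in FT and 0.96–1.19 FPKM in WT cells (log2 fold change -4.24, adjusted p = 0.0018). The groups did not overlap in any of these 3 genes. The second gene called higher was the abundant reductase CYB5R3, named after its values were seen, at 158, 276 and 277 FPKM in FT_1, FT_2 and FT_3 and 138–147 FPKM in WT cells (0.88, edgeR adjusted p = 0.0293). Its call was lost without FT_2, FT_3, WT_1, WT_2 or WT_3 (adjusted p 0.0835–0.107) and in the 3 limma fits (0.0559–0.082).

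Each turn of elongation also needs a reductase, a dehydratase and a second reductase. Of 6 such partner genes tested, 2 were higher and 1 lower (median log2 fold change 0.18). TECR, the last reductase, was at 38.3, 32.3 and 35.6 FPKM in FT_1, FT_2 and FT_3 and at 23.9, 26.6 and 24.4 FPKM in WT cells, and rose by a log2 fold change of 0.66 (edgeR adjusted p = 0.0032). The dehydratase HACD4 was at 5.53, 2.46 and 2.38 FPKM in FT cells and at 16.1, 13.5 and 14.0 FPKM in WT cells, and fell (log2 fold change -1.92, adjusted p = 0.0082). HACD2, at 40.1–48.9 FPKM in FT and 35.2–39.2 FPKM in WT cells, was called higher (0.43, adjusted p = 0.0177), but not without FT_3, WT_1, WT_2 or WT_3 (adjusted p 0.0569–0.0719) nor with library totals as the only scaling (0.0741) or in the 3 limma fits (0.0736–0.0843). Without FT_1, 3 of the 6 partners were higher and 2 lower.

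Peroxisomal beta-oxidation shortens the last intermediate of the pathway to docosahexaenoic acid. All 5 genes tested of this list had negative log2 fold changes, with 4 called lower and a median of -0.59, and without FT_1 all 5 were called lower. Of all genes tested, 18.9% were called lower with all libraries and 31.5% without FT_1. SCP2 was at 29.9, 37.7 and 34.9 FPKM in FT_1, FT_2 and FT_3 and at 99.1, 90.2 and 93.6 FPKM in the WT libraries (log2 fold change -1.30, edgeR adjusted p = 0.0011). ACAA1 was at 9.97, 9.23 and 9.09 FPKM in FT cells and at 17.1, 16.6 and 15.4 FPKM in WT cells (-0.64, adjusted p = 0.0022). The groups did not overlap for either gene. HSD17B4, at 41.6–57.0 FPKM in FT and 84.9–87.1 FPKM in WT cells, was lower as well (-0.59, adjusted p = 0.0218), but its call was lost without WT_1, WT_2 or WT_3 (adjusted p 0.0697–0.0773). The fourth call was the transporter ABCD3, named after its values were seen, at 11.7–15.2 FPKM in FT and 20.0–22.6 FPKM in WT cells (-0.51, edgeR adjusted p = 0.0237, and 0.0515–0.0885 without FT_2, WT_1, WT_2 or WT_3).

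Of the 7 genes of palmitate synthesis, 1 was higher, 2 were lower and 4 were not called (median log2 fold change 0.11), and without FT_1 1 was higher, 3 were lower and the median was -0.006. FASN, the fatty acid synthase whose palmitate ELOVL6 lengthens, was at 17.2, 10.5 and 11.5 FPKM in FT_1, FT_2 and FT_3 and at 5.81, 5.41 and 6.11 FPKM in the WT libraries. It rose in FT cells (log2 fold change 1.33, SE 0.19, edgeR adjusted p = 0.0035, and 1.10 without FT_1), the opposite direction to ELOVL6. ACSS2, which makes acetyl-CoA from acetate, was at 0.76–1.03 FPKM in FT and 2.24–2.69 FPKM in WT cells and fell (-1.26, adjusted p = 0.0043), and the carboxylase ACACB fell by 0.67 on the log2 scale (adjusted p = 0.0458) from 2.80–3.34 to 1.39–2.28 FPKM. The call of ACACB was lost without FT_2, FT_3, WT_1, WT_2 or WT_3 (adjusted p 0.0968–0.143) and without a filter on low counts (0.0524), and ACLY, at 19.9–32.5 FPKM in FT and 21.8–22.4 FPKM in WT cells, was not called.

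Of 8 acyl-CoA synthetase genes tested, 0 were called in either direction by edgeR with all libraries (median 0.32), 0 also at its unadjusted p under 0.05 and by DESeq2 and limma, and 3 were higher and 1 lower without FT_1. The members of that list with the smallest p were SLC27A4, at 0.90, 1.88 and 1.91 FPKM in FT_1, FT_2 and FT_3 and 1.01–1.16 FPKM in WT cells (log2 fold change 0.68, adjusted p = 0.156, and 0.96 with adjusted p = 0.00078 without FT_1), and ACSL3 (0.34, adjusted p = 0.12). Of 5 acyl-CoA thioesterases, which release free fatty acids, 2 were lower and the other 3 were not called (median 0.05), and without FT_1 3 were lower and the median was -0.28. ACOT2 was at 1.31, 2.24 and 1.33 FPKM in FT cells and at 4.14, 4.24 and 3.18 FPKM in WT cells (-1.08, edgeR adjusted p = 0.0267), and ACOT13 was at 20.6–24.6 FPKM in FT and 32.4–34.0 FPKM in WT cells (-0.36, adjusted p = 0.0356). Both calls were lost without FT_3, WT_1, WT_2 or WT_3 (adjusted p 0.0522–0.0952 and 0.0579–0.115), and that of ACOT13 also without FT_2 (0.0608) and with a trend on gene length removed (0.205). ACOT8, a peroxisomal thioesterase, had the next smallest p of the list and overlapped between groups (0.05, adjusted p = 0.784).

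Of 12 tested regulators that are known to act on desaturase or lipogenic genes, 7 were higher in FT cells and 5 were not called (median log2 fold change 0.44), and without FT_1 9 of 13 were higher and 2 lower. The shares of all genes tested were 20.1% higher and 18.9% lower, and 30.6% and 31.5% without FT_1. SREBF1, which encodes the transcription factor SREBP-1 of fatty acid synthesis, was at 9.59, 23.4 and 24.1 FPKM in FT_1, FT_2 and FT_3 and at 8.81, 7.97 and 9.06 FPKM in WT_1, WT_2 and WT_3. FT_2 and FT_3 were high, while FT_1 was just above the WT libraries. FADS2 was at 11.7 FPKM in FT_1, against at most 2.50 FPKM in WT cells. A link between the levels of SREBF1 and FADS2 was not tested. SREBF1 had a log2 fold change of 1.31 (SE 0.36, edgeR adjusted p = 0.0317) and of 1.63 without FT_1, and its call was lost without FT_2, FT_3, WT_1, WT_2 or WT_3 (adjusted p 0.0871–0.114) and in the 3 limma fits (0.062–0.0936). SCAP, the escort of SREBPs, was at 21.5, 11.7 and 12.6 FPKM in FT_1, FT_2 and FT_3 and at 7.46–8.66 FPKM in WT cells (1.06, adjusted p = 0.0166, 0.0569–0.0737 without WT_1, WT_2 or WT_3 and 0.0519 with limma without a filter). The nuclear receptors PPARD, at 10.9–12.7 FPKM in FT and 6.64–7.74 FPKM in WT cells, and NR1H2, at 31.6–33.8 and 25.5–27.2 FPKM, were higher too (0.89 and 0.48, adjusted p = 0.0022 and 0.0035).

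**Figure D5:**
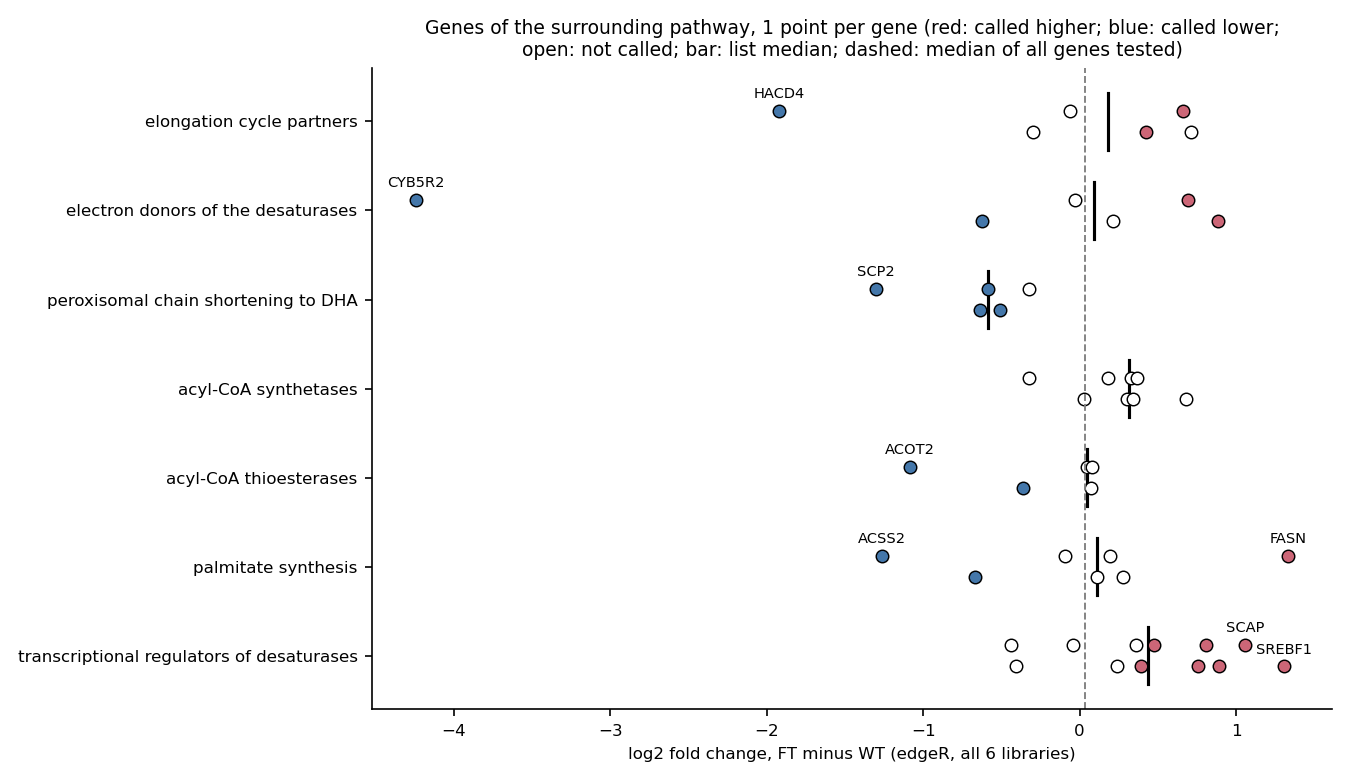
Log2 fold change (FT minus WT, edgeR, all 6 libraries, horizontal axis) of each tested gene in 7 lists around the desaturases and elongases, 1 point per gene, red where called higher, blue where called lower and open where not called, with list medians as bars and the median of all genes (0.03) as a dashed line. The peroxisomal list lies wholly below 0, 7 of 12 regulators are called higher (against 20.1% of all genes tested), and the other lists lie on both sides of 0.

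Of the other members of the 2 enzyme families that were listed, 2 were in the table used. FADS6 was at 0, 0.11 and 0.19 FPKM in FT_1, FT_2 and FT_3 and at 0.63, 0.34 and 0.51 FPKM in WT_1, WT_2 and WT_3. All FT values lay below the WT values at these low levels, and the change was not called (log2 fold change -2.11, SE 1.09, edgeR adjusted p = 0.174), but was without FT_1 (-1.51, adjusted p = 0.0434) and with all libraries by limma without a filter (-0.44, adjusted p = 0.0216). ELOVL2, the elongase of the longest PUFA, was at 0.02 FPKM in FT_3 and at 0 in the other 5 libraries. Its level was thus at or near the limit of detection in every library.

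The deposited KEGG annotation places 38 genes in unsaturated fatty acid synthesis or fatty acid elongation, 35 of which were tested, with 6 higher, 14 lower and a median log2 fold change of -0.08, and with 9 higher, 20 lower and a median of -0.335 without FT_1. Without the 9 members among them, 26 genes were tested, with 4 higher, 13 lower and a median of -0.45, and with 5 higher, 17 lower and a median of -0.52 without FT_1. Over all genes tested the shares were 20.1% higher and 18.9% lower, and 30.6% and 31.5% without FT_1. Among genes with a symbol outside the lists above, the largest falls called were in ACAA2, at 18.9, 19.9 and 18.1 FPKM in FT_1, FT_2 and FT_3 and 53.8–64.2 FPKM in WT cells (log2 fold change -1.45, edgeR adjusted p = 0.00064), and in HADHB, at 15.4, 22.0 and 21.6 FPKM in FT cells and 51.0–57.4 FPKM in WT cells (-1.31, adjusted p = 0.0025). ECHS1 was also lower, at 27.1–29.9 FPKM in FT and 48.7–56.0 FPKM in WT cells (-0.70, adjusted p = 0.0022). These 3 genes encode enzymes of mitochondrial beta-oxidation, and no FT library overlapped a WT library in any of them. The thioesterase PPT2 was higher, at 12.9–15.8 FPKM in FT and 6.34–6.85 FPKM in WT cells (1.24, adjusted p = 0.001). Under the same annotation 2 unnamed genes with low levels were called with a log2 fold change beyond 1, ENSBTAG00000010270 higher (1.48, adjusted p = 0.0161, lost without WT_3 at 0.0501) and ENSBTAG00000025760 lower (-1.87, adjusted p = 0.0109, lost without WT_1 at 0.0525). The annotation thus held the rises of FADS1 and FADS2 together with the falls of the oxidation enzymes, and it did not include FADS3.

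Among 8117 genes with a mean of at least 5 FPKM, those whose log2(FPKM + 1) followed FADS2 most closely over the 6 libraries were TMTC2, ZDHHC8 and LENG8 (Pearson's r = 0.9995, 0.9992 and 0.999). TMTC2 was at 12.0, 17.4 and 17.4 FPKM in FT_1, FT_2 and FT_3 and at 2.87, 2.82 and 3.30 FPKM in WT_1, WT_2 and WT_3, so that it too was lowest in FT_1 among the FT libraries. These libraries fall into 2 groups, so a correlation over them also holds the difference between the groups, and 559 genes had an r over 0.95 with FADS2. For SCD, which varied little, 4 genes did so, and the 3 closest were UEVLD, ENSBTAG00000045658 and STAM2 (r = 0.972, 0.963 and 0.961).

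The scaling between libraries bears on the small changes. The FPKM columns summed to 390892–407533 in FT and 453721–467653 in WT libraries, and edgeR's TMM factors were 0.934–0.968 and 1.05–1.06. With library totals as the only scaling, the median log2 fold change of all genes was -0.12 instead of 0.03, and the calls that were higher made up 37.6% instead of 51.6% of all calls. The 3 FADS genes were called higher and ELOVL6 lower under both scalings, at 1.33 for FADS1, 2.71 for FADS2, 0.94 for FADS3 and -0.61 for ELOVL6 with library totals. SCD and ELOVL1 were at 0.05 and 0.0043 and ELOVL4 and ELOVL5 at -0.23 and -0.20 with library totals, none of them called.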

How the data were processed

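RNA-seq of 3 FT and 3 WT libraries was analysed from 1 deposited table of 17663 genes, 14882 of them with a symbol. Per the paper, the authors mapped reads with HISAT to a UCSC genome, joined the transcripts by Perl scripts, and used StringTie and edgeR for expression levels. The submitters' processing notes name Bowtie 0.12.2, HISAT2 2.0, StringTie 1.3.0 and mm8, a mouse build. The cattle build and annotation release are not given in the sources used here, so coordinates are those of the authors' table. The raw counts per gene and the FPKM values were both deposited by the authors, 1 column of each per library.

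The counts were tested with edgeR 4.0.16 in R 4.3.3 (TMM, filterByExpr, quasi-likelihood test, Benjamini-Hochberg adjustment over 13482 genes, 95% intervals with moderated degrees of freedom). The test was checked on simulated counts with the same spread for every gene and library. It recovered 88 of 100 genes changed by a log2 fold of 1 in either direction, and 99 of 100 changed by 2. No simulated library stood apart as FT_1 did, so the check does not cover such a group. Alternatives were DESeq2 1.42.0, limma 3.58.1 on log2(FPKM + 1) and log2(FPKM + 0.1), other scalings and filters, a trend on gene length, a replicate block, other thresholds and leaving out each library. Lists without FT_1 were added after seeing the data. Ratios and shares were compared by exact two-sided permutation tests. Intervals and SEs cover the spread between these libraries.

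The members and the gene lists were chosen with earlier results of these data known. Named genes are the 10 members, of each pathway list the called genes with an absolute log2 fold change over 1 and the 2 others with the smallest p, the neighbours of FADS genes within 100 kb, the 3 genes most like FADS2 and SCD, and the most abundant markers with those at 0. CYB5R3, ABCD3 and the other markers were named after their values were seen, and the gene inside ELOVL6 for its overlap.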

Additional observations from a re-analysis of the deposited data

How the results depend on the processing

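Over 15 other fits, 134 of the log2 fold changes of the 10 members kept their direction and their side of the threshold, 5 lost a call, 3 gained one and 8 changed sign. Of the sign changes, that of ELOVL7 without FT_1 was also called, so 4 members gained a call there. FADS1 and FADS2 kept their calls throughout, and FADS3 lost its call without WT_1 or WT_2 only. The sign of ELOVL1 turned with limma on log2(FPKM + 1), with or without its filter (-0.0022 both times), and on log2(FPKM + 0.1) (-0.0022). Leaving out each library in turn gave -0.183 to 0.0309 for ELOVL4, -0.264 to 0.0496 for ELOVL5 and -0.51 to 1.24 for ELOVL7. Among 43 other named genes, 551 values kept direction and call, 70 lost a call, 8 gained one and 10 changed sign, all of the latter in genes that were not called. ACOT8 was at -0.10 with library totals only, -0.0939 with limma on log2(FPKM + 1), with or without its filter, and -0.107 on log2(FPKM + 0.1), and at -0.0166 to 0.11 without single libraries. FTH1 was at -0.0537 with library totals and at -0.0665, -0.0665 and -0.0666 in the same limma fits. The cause of these changes was not tested.

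Among all genes, 2714 were called higher and 2547 lower. Limma without a filter called 1744 higher and 3622 lower. The calls that were higher made up 32.5–34.8% of all calls in the 3 limma fits, against 51.6%. A log2 fold change beyond 1 left 1131 higher and 1019 lower at an adjusted p under 0.05, and 1378 and 1208 at an unadjusted p. Without single libraries the counts were 1516 to 4215 higher and 1531 to 4337 lower, the largest without FT_1, and the members called were 2 to 5 higher and 0 to 3 lower. Under both fold criteria 0 members were lower.

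With the replicate number as a replicate block, 1838 genes were higher and 1741 lower, 3 members were higher and 0 lower, and ELOVL6 was at -0.47 (edgeR adjusted p = 0.067). Of the 43 other named genes, 8 were not called in that fit although they were without the block, namely HSD17B4, ABCD3, ACACB, ACOT13, CYB5R3, DAGLA, SREBF1 and ENSBTAG00000010270 (edgeR adjusted p 0.0517–0.0831). With levels centred on the mean of each group, correlations between libraries of the same number were -0.0010, -0.0198 and 0.0184. Not every library correlated best with its own number. The spread of the FT group came largely from FT_1, so these values cannot decide whether the numbers pair the samples.

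Limits are 3 libraries per group, 1 contrast, and a group whose FT_1 library stood apart with high keratins. Leaving out each library in turn gave log2 ratios of FT to WT of 1.32 to 1.48 for FADS2 to FADS1. For the shares in the FADS family these were 0.19 to 0.26 for FADS1, 1.57 to 1.68 for FADS2 and -0.17 to -0.16 for FADS3. None of these changed direction with counts over relative length. The SCD5 and ELOVL7 shares rested on FT_1 (log2 ratio of FT to WT -0.19 and -0.41 without it). FADS2 rests on 349 or more counts per library, and FADS6 and ELOVL2 were measured at very low levels.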
